A study of Mus musculus with 3 samples.

Results

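The genes described here were 6 caspase genes (Casp1, Casp2, Casp4, Casp6, Casp8 and Casp9), Apaf1 and Cflar, the gene of cFLIP. They were chosen by name, though with earlier results of these data known, and all 8 were found among the 50600 genes of the deposited tables. RNA came from primary T cells of C57BL/6NJ mice, sequenced as 3 libraries of a single group, to which the labels give the biological replicate numbers 2, 3 and 4. The labels give no treatment, no time, an unknown age and no recorded sex, and they name a protocol for differentiating CD4+ T cells, while the alignment names in the file headers carry Th0, activated and 0 h. Each library has its own biosample, and all carry a single donor identifier, but Xist and Ddx3y, described at the end, set replicate 2 apart. No label says that the cultures were separate, so a p-value here reflects library-to-library spread, some of which may be technical. With no other group analysed here, the data could show how abundant each transcript was and which genes differed among the libraries.

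Caspases are proteases that cut their substrates after aspartate and exist in cells as inactive precursors. Caspase-8 starts the death receptor pathway on a platform built by FADD, where cFLIP, a relative of caspase-8 without protease activity, pairs with it and limits its processing. Caspase-9 starts the mitochondrial pathway on the apoptosome, a wheel of APAF1 molecules that assembles when cytochrome c leaves mitochondria. Both pathways converge on effector caspases. In T cells caspase-8 is also needed during activation, when it restrains RIPK3-driven necroptosis. Caspase-1 and caspase-4 (the mouse enzyme also called caspase-11) belong to inflammasomes and cleave gasdermin D.

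The RefSeq promoter table (build GRCm38.p6) held all 8 genes. The 250 bases before the start of 4 of them are shown because they span the range of CpG content in the set, from Apaf1 and Casp9, the apoptosome pair, to Casp8, the most abundant member, and Casp1. Capitals mark each CpG, and all are written 5′ to 3′ on the strand of the gene.
Apaf1, chr10:91082744-91082993, minus strand: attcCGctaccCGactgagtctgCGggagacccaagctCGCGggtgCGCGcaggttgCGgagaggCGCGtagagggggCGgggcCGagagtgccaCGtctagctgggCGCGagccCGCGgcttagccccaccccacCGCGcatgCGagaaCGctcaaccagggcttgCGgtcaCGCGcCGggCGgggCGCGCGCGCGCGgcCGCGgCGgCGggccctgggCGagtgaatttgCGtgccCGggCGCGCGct
Casp9, chr4:141793362-141793611, plus strand: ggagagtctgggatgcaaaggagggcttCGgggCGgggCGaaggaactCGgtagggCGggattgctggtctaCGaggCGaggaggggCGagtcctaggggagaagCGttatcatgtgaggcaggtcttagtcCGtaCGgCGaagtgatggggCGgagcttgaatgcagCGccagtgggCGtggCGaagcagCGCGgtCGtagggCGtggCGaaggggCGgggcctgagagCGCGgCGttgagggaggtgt
Casp8, chr1:58802252-58802501, plus strand: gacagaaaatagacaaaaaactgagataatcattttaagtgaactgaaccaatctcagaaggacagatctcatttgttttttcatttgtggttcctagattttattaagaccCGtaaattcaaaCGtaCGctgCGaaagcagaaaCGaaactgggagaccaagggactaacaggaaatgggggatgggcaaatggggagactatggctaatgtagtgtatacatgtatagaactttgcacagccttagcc
Casp1, chr9:5298267-5298516, plus strand: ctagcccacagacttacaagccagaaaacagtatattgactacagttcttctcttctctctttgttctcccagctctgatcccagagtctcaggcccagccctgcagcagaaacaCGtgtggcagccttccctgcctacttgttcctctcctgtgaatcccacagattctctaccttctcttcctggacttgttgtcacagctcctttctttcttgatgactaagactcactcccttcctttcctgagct

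The Apaf1 window held 42 CpG, the Casp9 window 25, the Casp8 window 5 and the Casp1 window 1. The median of 32851 RefSeq promoter windows of this length was 6. The other members had 17 (Casp2), 11 (Casp6), 7 (Cflar) and 3 (Casp4, in each of its overlapping windows). The GC content was 75.6% for Apaf1, 66.0% for Casp9, 39.6% for Casp8 and 49.2% for Casp1. The GC box GGGCGG, searched on both strands, was found in the windows of 4 members, with 4 matches in Casp9, 2 in Apaf1 and 1 each in Casp2 and Casp6. It stood in 32.7% of all windows. TATAAA was found in the Cflar window alone, where the matches on the 2 strands overlap, and in 12.4% of all windows. CCGGAAG (6.91% of all windows) and TTCNNNGAA (7.02%) had no match in the 8 genes. The Casp8 window lies inside the gene of the deposited tables, whose first exon starts further upstream at position 58795374.

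Levels are given in TPM, read pair counts per length of gene relative to all genes of a library, as the mean ± SD over the 3 libraries. They ran from 245 TPM for Casp8 to 0.853 TPM for Casp4. Counting genes at or above 1 TPM in all 3 libraries, 7 of the 8 passed, and Casp4 did not, since it reached that level in replicate 4 alone. Among 21764 protein-coding genes, 46.1% passed the same threshold. The median of the members was 20.3 TPM, against 33.4 TPM over the 10030 protein-coding genes that passed. In RNA from many cells, fewer cells of a type and less RNA per cell cannot be told apart.

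**Figure D1:**
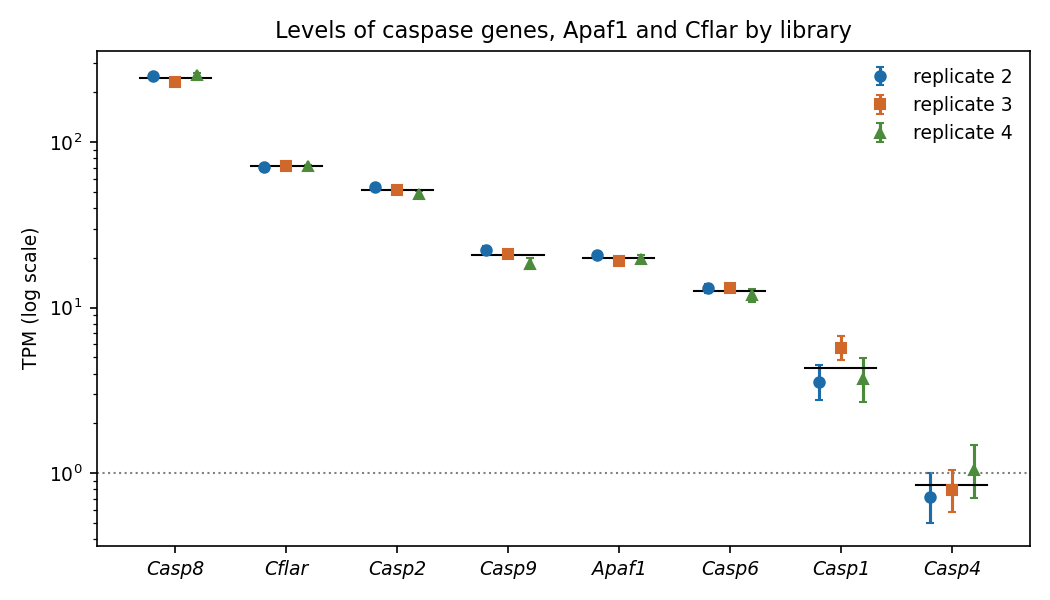
Level of each gene in TPM on a log axis, by library, with exact Poisson 95% intervals that cover counting error only and a black line at the mean of the 3 libraries. Casp8 sits highest at 231 to 254 TPM, Casp9 and Apaf1 overlap near 20 TPM, and Casp4 alone has libraries below the dotted line at 1 TPM (replicates 2 and 3).

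Casp8 (ENSMUSG00000026029.14, mm10 chromosome 1, 58795374 to 58847503, plus strand) was at 249 TPM in replicate 2, 231 TPM in replicate 3 and 254 TPM in replicate 4. All 3 libraries lay above every value of any other member. The mean of 245 ± 12.3 TPM (SD, n = 3) exceeded that of 93.8% of the protein-coding genes at 1 TPM or more. Casp8 held 57.5% of the summed TPM of the 8 genes.

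Cflar (ENSMUSG00000026031.15, chromosome 1, 58711508 to 58758884, plus strand) was at 70.8, 71.5 and 71.6 TPM in replicates 2, 3 and 4. Its mean of 71.3 ± 0.407 TPM had the smallest relative spread of the 8 genes, with a coefficient of variation of 0.571% against 0.982% from counting alone. That value depends on the scaling. In TMM-scaled RPKM Cflar was at 19.4, 19.9 and 20.4 in replicates 2, 3 and 4, a wider relative spread. Cflar and Casp8 lie on the same strand of chromosome 1 with 36489 bases between them, which hold 1 annotated gene, Gm3841, at 0 TPM. Casp8 exceeded Cflar by 1.78 ± 0.08 on the log2(TPM + 0.1) scale, in 3 of 3 libraries. Written as a ratio of length-corrected pooled counts, Cflar to Casp8 was 0.294, with a 95% exact binomial interval from 0.290 to 0.299 that covers counting error only. The ratio was 0.284 in replicate 2, 0.310 in replicate 3 and 0.282 in replicate 4, so replicate 3 stood above the others and its interval (0.302 to 0.317) did not meet theirs. With the longest annotated transcript as the gene length the pooled ratio was 0.507, because the merged exons of Cflar (12669 bases) are 1.93 times as long as its longest transcript (6572 bases). Long and short forms of cFLIP come from this same gene, and counts per gene do not separate them.

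Casp9 (ENSMUSG00000028914.13, chromosome 4, 141793612 to 141815976, plus strand), the initiator of the mitochondrial pathway, was at 22.3, 21.2 and 18.5 TPM in replicates 2, 3 and 4. Apaf1 (ENSMUSG00000019979.12, chromosome 10, 90989311 to 91082770, minus strand), which encodes its scaffold, was at 20.8, 19.0 and 19.7 TPM. The values of the 2 genes overlapped, with Casp9 higher in replicates 2 and 3 and Apaf1 higher in replicate 4. Their means were 20.7 ± 1.99 and 19.8 ± 0.866 TPM, and the log2 difference of 0.05 ± 0.13 was smaller than its spread. The pooled ratio of Apaf1 to Casp9 was 0.942, with an exact 95% interval from 0.906 to 0.979, but the ratios of the libraries ran from 0.900 to 1.07. On the length of the longest transcript it was 0.970. Casp8 exceeded Casp9 by 3.56 ± 0.18 on the log2 scale, in 3 of 3 libraries, and the pooled ratio was 11.5 (11.2 to 11.9). That ratio was 11.2, 10.9 and 13.8 in replicates 2, 3 and 4, highest in replicate 4.

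Casp2 (ENSMUSG00000029863.13, chromosome 6, 42264985 to 42282508, plus strand), the caspase of the PIDDosome, was at 53.8, 51.5 and 48.9 TPM in replicates 2, 3 and 4, a mean of 51.4 ± 2.46 TPM. It ranked next below Cflar, by 0.47 ± 0.08 on the log2 scale in 3 of 3 libraries. The genes of its partners in that complex were lower, Pidd1 at 10.03 ± 1.28 TPM and Cradd, which encodes the adaptor RAIDD, at 6.01 ± 0.270 TPM. Casp6 (ENSMUSG00000027997.9, chromosome 3, 129901425 to 129914103, plus strand), which encodes an effector caspase that cleaves lamin A, was at 13.1, 13.1 and 11.9 TPM, a mean of 12.7 ± 0.702 TPM. Replicate 4 was the lowest for both genes.

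The inflammatory caspases were the lowest. Casp1 (ENSMUSG00000025888.5, chromosome 9, 5298517 to 5307265, plus strand) was at 3.55, 5.70 and 3.69 TPM in replicates 2, 3 and 4, from 70, 142 and 44 counts. Replicate 3 was the highest, and its 95% counting interval (4.80 to 6.72 TPM) did not meet that of replicate 2 (2.77 to 4.49 TPM) but met that of replicate 4 (2.68 to 4.95 TPM). Casp4 (ENSMUSG00000033538.13, chromosome 9, 5308828 to 5336783, plus strand) was at 0.716, 0.793 and 1.05 TPM, from 35, 49 and 31 counts. All 3 of its intervals overlapped, the widest from 0.712 to 1.49 TPM in replicate 4, so no order of the libraries could be seen at this depth. Casp1 exceeded Casp4 by 2.19 ± 0.49 on the log2 scale in 3 of 3 libraries, and the pooled ratio was 5.52 (4.41 to 6.94). With the longest transcript as the length it was 2.83, and Casp4 then reached 1.32 ± 0.269 TPM and passed 1 TPM in every library.

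Casp1, Casp4 and Casp12 stand in a row on the plus strand of chromosome 9, with 1562 bases between the first pair and 8646 between the second. Along this row the means were 4.31 ± 1.20 TPM for Casp1 and 0.853 ± 0.174 TPM for Casp4, and Casp12 had 0 counts, where 3 pooled counts would amount to 0.0207 TPM. Caspase-1 and caspase-4 are best known from myeloid cells, so the markers of macrophages and monocytes are given beside them. Of the 8 genes listed, 2 reached 1 TPM in all 3 libraries, Cd14 and Fcgr1 had 0 counts, and the summed level was 16.1, 17.3 and 17.4 TPM in replicates 2, 3 and 4. Most of that sum was Cd68, at 13.3 ± 0.314 TPM. Csf1r, the receptor of macrophage growth factor, was at 0.0933, 0.480 and 0.334 TPM, highest in replicate 3 as Casp1 was. Lyz2, at 1.75 ± 0.418 TPM, was highest in replicate 3 too. So was Itgam, though by little, at 1.11 TPM there and 1.07 TPM in replicate 4. Adgre1, at 0.117, 0.204 and 0.425 TPM, and Mpeg1, at 0.123, 0.319 and 0.463 TPM, were highest in replicate 4, as was Cd68. Of the 7 B cell markers 6 passed, with 48.6, 54.6 and 38.1 TPM in sum, again highest in replicate 3. The part of these cells in the levels of Casp1 and Casp4 was not tested. None of 7 neutrophil and 5 dendritic cell markers passed, while all 8 T cell markers did, with sums between 9331 and 9550 TPM. Of the 4 NK cell, 2 CD8 T cell and 4 epithelium markers, 1 gene of each list passed. These were Klrd1 at 29.4 ± 0.900 TPM, Cd8b1 at 33.6 ± 3.00 TPM and Epcam at 2.98 ± 0.113 TPM. The other NK cell markers had means of 0.842 TPM (Ncr1), 0.607 TPM (Klrb1c) and 0.273 TPM (Klre1), and Cd8a was at 0.534 TPM. Of the other epithelium markers, Cdh1 was at 0.550 TPM, Krt18 was at 0.121 TPM and Krt8 had 0 counts.

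In order of level the genes were Casp8, Cflar, Casp2, Casp9, Apaf1, Casp6, Casp1 and Casp4. Of the 28 pairs, 27 kept a single sign in 3 of 3 libraries. Permuting the signs over libraries gave each of them p = 0.25 (exact, two-sided), or 0.259 after Benjamini-Hochberg adjustment over the 28 pairs. That p is the smallest that 3 libraries allow, so no pair could pass 0.05. The exception was Casp9 with Apaf1 (exact p = 0.50, adjusted p = 0.50). Of the other neighbours in the order, Casp2 exceeded Casp9 by 1.32 ± 0.07, Apaf1 exceeded Casp6 by 0.64 ± 0.10 and Casp6 exceeded Casp1 by 1.57 ± 0.34 on the log2 scale. Each of these gaps was larger than its spread.

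**Figure D2:**
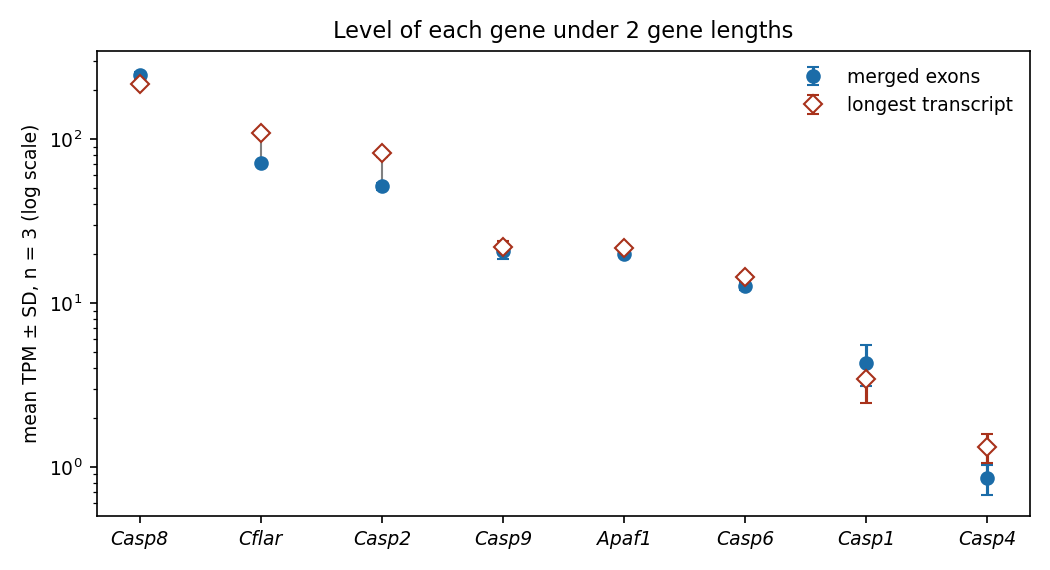
Mean TPM ± SD of each gene over 3 libraries on a log axis, with the merged exon length of the deposited tables (filled circles) and with the longest annotated transcript (open diamonds). Cflar moves from 71.3 to 109 TPM and Casp2 from 51.4 to 81.8 TPM, while Casp8 moves from 245 to 218 TPM and the order of the 8 genes stays as it was.

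The gene length bears on comparisons between these genes. The merged exons were as long as the longest transcript for Casp1, which has 1 annotated transcript, and 2.00 times as long for Casp2, 1.95 times for Casp4 and 1.93 times for Cflar, which has 13. With the longest transcript, Cflar was at 109 ± 0.632 TPM and Casp2 at 81.8 ± 3.91 TPM, and Casp8 stood at 218 ± 10.9 TPM. No exon of the 8 genes overlapped another gene on the same strand. In Casp9 1.81% of exon bases overlapped a gene on the other strand, which counting by strand keeps apart.

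None of the 8 genes was called for variation among the libraries by edgeR's goodness of fit test with Benjamini-Hochberg adjustment, which asks whether a gene varies more than genes of its abundance. By that test 72 of 13498 genes, 0.533%, were called. At an unadjusted p under 0.05 it was also 0 of the 8 genes, against 554 of all genes tested, or 4.1%. Unadjusted p-values in edgeR's test ran from 0.209 for Casp1 to 0.916 for Cflar, and each adjusted p was 1.00. With a common dispersion for all genes in edgeR, 0 members and 2.31% of genes were called, and the smallest adjusted p of a member was 0.321, for Casp1. At an unadjusted p under 0.05 in that setting it was 1 member, against 1358 of the 13498 genes tested. A p that misses the threshold does not show that levels were equal. The range of TMM-scaled log2 CPM between the highest and lowest library had a median of 0.14 over the members and 0.19 over all genes tested.

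**Figure D3:**
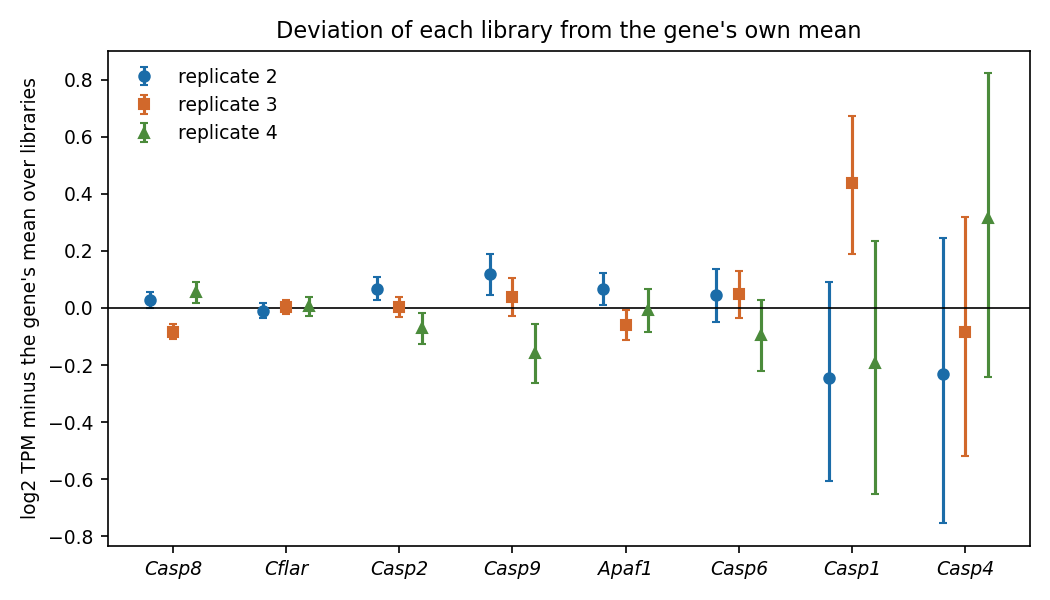
Difference of each library's log2 TPM from the gene's own mean, with exact Poisson 95% intervals that cover counting error only. The libraries of the 6 more abundant genes lie within a narrow band, and Casp1 and Casp4 have wide intervals, with Casp1 highest in replicate 3.

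In TPM, both Casp8 and Casp9 had 1 library that stood apart beyond its counting interval. For Casp8 it was replicate 3 (227 to 235 TPM), below replicate 2 (244 to 254 TPM) and replicate 4 (248 to 261 TPM). For Casp9 it was replicate 4 (17.2 to 19.8 TPM), below replicate 2 (21.2 to 23.5 TPM) and replicate 3 (20.2 to 22.2 TPM). In TMM-scaled RPKM Casp8 was at 68.5, 64.3 and 72.3 in replicates 2, 3 and 4, with replicates 2 and 4 relatively further apart than in TPM. The range of Casp8, 0.17 on the log2 CPM scale, was above that of 84.4% of the 1991 genes within a factor of 2 of its mean count, whose median range was 0.10. Cflar had a range of 0.07, above 30.4% of 1598 such genes. Casp9 had a range of 0.22, above 77.7% of 3759 genes, and Apaf1 0.10, above 40.2% of 3887. For Casp1 the range was 0.69, above 76.2% of 1606 genes. The remaining members were Casp2 with 0.09, above 37.6% of 3152 genes, Casp6 with 0.11, above 27.9% of 3346, and Casp4 with 0.57, above 41.6% of 1917. The coefficient of variation of Casp1 was 27.9% in TPM, and counting error alone would give 12.1%. For Casp4 these values were 20.4% and 16.5%.

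Beside the members, 49 genes of the same pathways were examined in 7 lists. In all, 37 reached 1 TPM in all 3 libraries, the median of the 49 was 26.2 TPM, and 0 of the 40 tested were called in edgeR's goodness of fit test, with 1 at an unadjusted p under 0.05. Casp12 and Casp14, a caspase of the epidermis, had 0 counts, and the floor of 3 pooled counts is 0.0332 TPM for Casp14.

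On the death receptor side, 7 of 8 receptors and ligands reached that level. The highest were Tnfrsf25, which encodes the death receptor DR3, at 162 ± 6.49 TPM, the TNF receptor gene Tnfrsf1a at 104 ± 2.96 TPM and Tnf at 46.7 ± 5.49 TPM. Of the adaptors and kinases, 7 of 8 passed, led by the necroptosis kinase gene Ripk3 at 93.9 ± 2.07 TPM, the adaptor gene Tradd at 77.5 ± 1.96 TPM and the deubiquitinase gene Cyld at 69.1 ± 1.69 TPM. Fadd, the adaptor that recruits caspase-8, was at 16.2, 13.5 and 16.5 TPM in replicates 2, 3 and 4, lowest in replicate 3 as Casp8 was. Mlkl, which encodes the pore-forming effector of necroptosis, had 18 counts over the 3 libraries and 0.270 ± 0.286 TPM. Fadd and Mlkl were named after their values were seen.

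In the mitochondrial list all 5 genes passed, with Htra2, a protease gene, at 37.7 ± 1.92 TPM, Aifm1, which encodes apoptosis-inducing factor, at 31.0 ± 2.61 TPM and the nuclease gene Endog at 28.3 ± 1.41 TPM. Cytochrome c, the trigger of APAF1, is encoded in somatic cells by Cycs, which was at 13.7 ± 1.02 TPM and was named after its values were seen. All 5 inhibitor of apoptosis genes passed, with Birc6 at 138 ± 2.98 TPM, Birc3 at 73.3 ± 4.49 TPM and Birc2 at 72.7 ± 5.12 TPM, and their list median of 72.7 TPM was the highest of the 7. All 9 caspase substrates passed, led by Acin1 at 250 ± 4.80 TPM, the DNA repair enzyme gene Parp1 at 92.9 ± 3.79 TPM and the lamin gene Lmnb1 at 63.3 ± 2.22 TPM.

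The inflammasome list had a median of 0.668 TPM, and 4 of its 12 genes reached 1 TPM in all 3 libraries. Its levels were divided. Gsdmd, the gene of gasdermin D, was at 211 ± 15.9 TPM, the adaptor gene Pycard at 80.0 ± 4.15 TPM and the DNA sensor gene Aim2 at 26.6 ± 0.247 TPM. Nlrp3 had 1 count and Mefv, the pyrin gene, had 0. Of the cytokine substrates of caspase-1, Il1b had 23 counts and a mean of 0.424 TPM, and Il18 had 4 counts and 0.114 TPM, where the floor of 3 pooled counts is 0.0770 TPM. Nlrp3, Mefv, Il1b and Il18 were named after their values were seen.

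**Figure D4:**
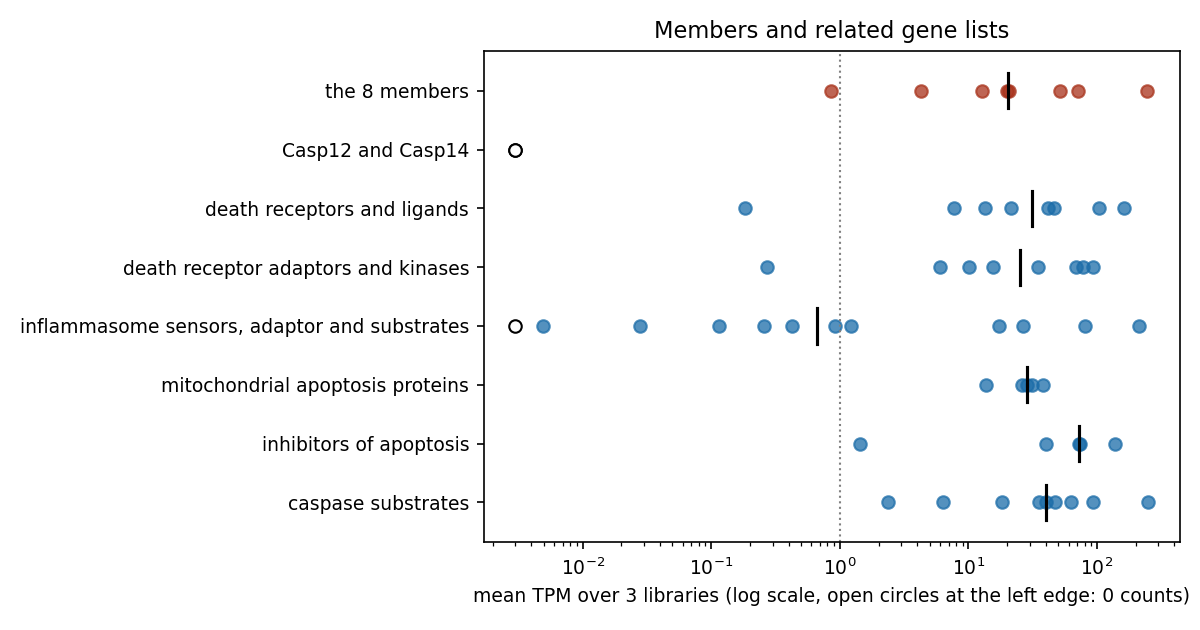
Mean TPM over 3 libraries on a log axis for the 8 members (red) and the 7 related lists (blue), with a black bar at each median above 0 and genes with 0 counts as open circles at the left edge. The inflammasome list spreads from 0 counts to 211 TPM, while all mitochondrial, inhibitor and substrate genes lie above the dotted line at 1 TPM.

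The gene of these lists whose level over the 3 libraries lay closest to each member was found by Euclidean distance of log2(TPM + 0.1). For Casp8 it was Acin1 (distance 0.08), for Cflar it was Cyld (0.10), for Casp9 it was Tnfsf10, the gene of the death ligand TRAIL at 21.3 ± 1.72 TPM (0.13), and for Casp6 it was Fasl, the gene of Fas ligand at 13.5 ± 1.20 TPM (0.18). Casp2 was closest to Dffa (0.23), Apaf1 to Tnfsf10 (0.26) and Casp4 to Nlrc4 (0.28). Casp1 had no near neighbour, the closest being Cradd at a distance of 1.04. With 3 libraries of a single group the measure reflects mostly the mean level.

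Promoter CpG count did not order the levels of the 8 genes. Casp8 and Cflar, the most abundant, had 5 and 7 CpG in the 250 bases before the start, close to the median of 6 over all windows, while Apaf1 with 42 CpG was at 19.8 TPM. The lowest genes, Casp1 and Casp4, had the fewest CpG, 1 and 3. The Casp8 window lies inside the gene, and the bases before its upstream start were not examined.

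**Figure D5:**
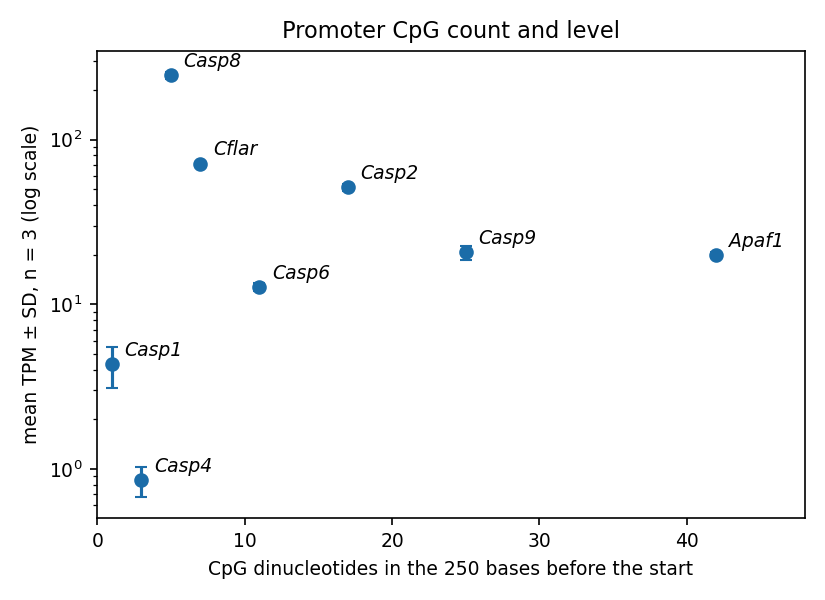
CpG dinucleotides in the 250 bases before the RefSeq start against mean TPM ± SD over 3 libraries (log axis), 1 point for each of the 8 genes. Casp8 is highest with 5 CpG, in a window that lies inside the gene, and Apaf1 has the most, 42, at 19.8 TPM.

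The libraries held 47432940 (replicate 2), 59698913 (replicate 3) and 28340521 (replicate 4) counts, so replicate 4 gives the widest intervals. Over the 3 libraries the members had between 115 counts (Casp4) and 34118 counts (Cflar). Replicate 2 also stood apart in sex-linked genes, with Xist at 151 TPM against 0.221 and 0.399 TPM in replicates 3 and 4. Ddx3y, a helicase gene on the Y chromosome, had the opposite order, with 0.248 TPM for replicate 2, 80.0 TPM for replicate 3 and 72.3 TPM for replicate 4. These are the levels of a female source for replicate 2 and a male source for the others, so the libraries did not all come from 1 animal, whatever the shared donor identifier denotes. No member had replicate 2 apart from both others in the same direction beyond the counting intervals.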

How the data were processed

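The members and the gene lists were chosen with earlier results of these data known. Per the file headers, the authors made the deposited raw counts with featureCounts 1.4.6-p4 on GENCODE M13 (mm10), pairing both ends and keeping strands apart. No setting for multiply aligned reads is named, and the aligner version is not given in the sources used here.

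Ensembl identifiers gave symbols for 50376 of 50600 genes, and GENCODE M21 (mm10) gave biotypes and transcript lengths. TPM was computed from counts and merged exon lengths. To test variation among libraries, edgeR 4.0.16 (R 4.3.3) fitted 1 mean per gene by a negative binomial model (TMM scaling, trended dispersion, mean count at least 10), and goodness of fit p-values were adjusted by Benjamini-Hochberg at 0.05. Checked on simulated data for this comparison (13498 genes, 200 changed in 1 library), it recovered 27.5% of genes changed 1.5-fold, 70.5% at 2-fold and 90.0% at 4-fold. Contrasts used log2(TPM + 0.1) and exact permutation of signs. Intervals are exact Poisson or binomial at 95%. Like the floor of 3 counts, they cover counting error only. Named were the 8 members, the 3 highest genes of each list, any that passed the test, and the nearest gene of each member. Pidd1, Cd68, Csf1r, Lyz2, Itgam, Adgre1, Mpeg1, Cd14, Fcgr1, Xist and Ddx3y were added after their values were seen. The same holds for Klrd1, Ncr1, Klrb1c, Klre1, Cd8b1, Cd8a, Epcam, Cdh1, Krt18 and Krt8 and for genes marked so in the text. Some genes of the lists are not reported here. Promoter windows came from RefSeq (GRCm38.p6). Alternatives were other detection thresholds, gene lengths, pseudocounts, scalings, count minimums, a common dispersion and each replicate left out.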

Additional observations from a re-analysis of the deposited data

How the results depend on the processing

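No member was called for variation among libraries under any setting tried, although Casp4 fell below a mean count of 50 and was not tested there. The count over all genes was 72, 312 with a common dispersion and between 35 and 46 with each replicate left out. With the longest transcript as gene length, the ratio of Cflar to Casp8 was 0.507, that of Casp1 to Casp4 was 2.83 and that of Casp8 to Casp9 was 9.67. Members at or above 1 TPM in all 3 libraries numbered 7, against 6 at 5 or 10 TPM and 8 at 1 TPM with the longest transcript. The share over protein-coding genes, 46.1%, was taken at 1 TPM with merged exon lengths only, so the other counts have no such share beside them. Pairs with a single sign in every library stayed at 27 under each alternative except without replicate 4, where Casp9 exceeded Apaf1 in both libraries and the count was 28. No pair changed direction. TMM-scaled RPKM gave means over the 3 libraries 0.279 to 0.280 times those in TPM, and TPM over protein-coding genes 1.08 times. In single libraries the factor of TMM-scaled RPKM differed, so the spread among libraries changed too. Members with few counts, Casp1 and Casp4, are limited by depth. No paired analysis was possible because the series has 1 group.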

Other observations

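A few genes of the related lists were low or uneven among the libraries, and all were picked after their values were seen. Nlrp1b, a sensor that activates caspase-1, was at 1.52, 0.762 and 1.41 TPM in replicates 2, 3 and 4, lowest in replicate 3, with an unadjusted p of 0.0395 and an adjusted p of 1.00 in edgeR's goodness of fit test. It has near-identical copies, so its counts are uncertain. Under a common dispersion its adjusted p in edgeR was 0.0371, and it was the opposite of Casp1 in order, which was highest in replicate 3. Il1b was at 0.159, 0.126 and 0.987 TPM and Mlkl at 0.132, 0.0782 and 0.599 TPM, both highest in replicate 4. The summed neutrophil markers (0.691, 1.18 and 2.35 TPM) and dendritic cell markers (0.548, 0.621 and 1.30 TPM) were also highest there, and their part in these values was not tested. Neither Il1b nor Mlkl had the mean count needed for the test. Birc5, the survivin gene of dividing cells, was at 1.12, 1.84 and 1.33 TPM, lowest of the inhibitor genes.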
